A study of Homo sapiens with 24 samples.

Results

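AP-1 and immediate-early transcription factors are described here through 10 genes: JUN, JUNB, JUND, FOS, FOSB, FOSL1, FOSL2, ATF3, EGR1 and KLF6. They were chosen by gene symbol with earlier results of these data known, and all 10 are among the 22446 symbols measured. Counts of members beside shares of all genes are therefore a description. RNA came from A2780, an ovarian carcinoma line of epithelial origin, kept in 1% oxygen (hypoxia) or as an untreated control (normoxia) for 6 hr, 48 hr or 6 days. All groups grew in RPMI medium with fetal bovine serum and an antibiotic, no genetic change is stated for any group, and each of the 6 groups has 2 total RNA libraries, numbered 1 to 12 over the series. Library numbers run by time: at 6 hr the controls are 1 and 2 and the hypoxia libraries 3 and 4, at 48 hr the controls are 5 and 6 and the hypoxia libraries 7 and 8, and at 6 days the controls are 9 and 10 and the hypoxia libraries 11 and 12. Nothing in the labels ties the libraries of a group to different cultures, and p-values therefore cover the spread between these libraries, which may be technical.

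AP-1 is a pair of basic leucine zipper proteins drawn from the JUN, FOS and ATF families, and its sequence on DNA is TGAGTCA. JUN proteins can pair with each other, whereas FOS proteins need a JUN partner, so the makeup of both families sets which pairs a cell can form. Genes of this kind are called immediate-early because serum, growth factors and stress switch them on without new protein synthesis, through mitogen-activated protein (MAP) kinases and the serum response factor SRF, and their mRNAs are short-lived. In tumour cells AP-1 is known for its part in growth, survival, invasion and the expression of matrix metalloproteinases, while the best known response to low oxygen runs through the hypoxia-inducible factors (HIF), which bind ACGTG and GCGTG.

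Hypoxia was accompanied by higher RNA of JUN, FOSL2 and ATF3 at all 3 times. JUNB rose at 6 hr and 48 hr, JUND rose at 48 hr, and EGR1 fell at 6 days. Values are RPKM, reads per kilobase of transcript scaled to the reads of the library, which is a level per length, and a gene was tested where at least 2 of 12 libraries reached 1 RPKM, which left 11933 genes and 9 of the 10 described here. Differences were tested with limma on log2(RPKM + 0.5), on which fold changes of low genes come out too small, and called at an adjusted p under 0.05 (Benjamini-Hochberg over all genes tested). At 6 hr 4 of the 9 rose, beside 3.39% of all tested genes that rose and 3.59% called in either direction. None fell, beside 0.201%. At 48 hr 5 of the 9 rose, beside 9.24% of all genes that rose and 12.1% called in either direction. None fell, beside 2.89%. At 6 days 3 rose and 1 fell, which is close to the background, since 23.9% of all genes rose, 18.3% fell and 42.2% were called in either direction. The median log2 fold change of the 9 was 0.56 at 6 hr, 0.58 at 48 hr and 0.17 at 6 days, and that of all tested genes was 0.04, 0.01 and 0.04. Higher calls made up 94.4%, 76.2% and 56.6% of all calls at the 3 times, which became 76.1%, 57.9% and 45.3% with quantile normalization and 76.2%, 56.6% and 49.2% with each library centred on its trimmed mean.

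Reads per library, implied by the steps of the precursor miRNA values, ran from 25.2 mega-reads in library 12 to 51.8 mega-reads in library 1. As a check of the labels, genes known to follow HIF were read. SLC2A1, a glucose transporter, was 4.50-fold, 4.93-fold and 4.51-fold higher in hypoxia at 6 hr, 48 hr and 6 days. PDK1, BNIP3 and ADM were also called at each time. CA9 was called at 48 hr and 6 days and had an adjusted p of 0.171 in limma at 6 hr. CA9 reached 1 RPKM only in hypoxia libraries of 48 hr and 6 days, so it was tested only through groups where it is high. Of 7 epithelial and ovarian markers, EPCAM and KRT18 gave most of a summed level of 61.4 to 79.9 RPKM, and CDH1, PAX8 and MUC16 stayed under 0.1 RPKM in all 12 libraries. Leukocyte markers summed to 0.37 to 1.08 RPKM and endothelial markers to 0.032 to 0.341 RPKM, both highest in the 6 hr hypoxia group. Of 6 fibroblast markers, DCN, LUM and THY1 reached 1 RPKM in libraries other than 4, and COL1A1 and COL1A2 in library 4 alone. Their sum overlapped between groups at 6 hr (28.4 to 33.4 RPKM in normoxia and 32.9 to 34.6 in hypoxia) and was higher in hypoxia later, 25.1 to 27.7 against 38.3 to 41.3 RPKM at 48 hr and 31.6 to 32.9 against 41.7 to 45.2 RPKM at 6 days. The proteoglycans LUM and DCN passed the threshold at 48 hr and 6 days, while THY1 had a log2 fold change of -0.01 and -0.18 at those times and did not pass. PDGFRB, also among the fibroblast markers, was at most 0.153 RPKM in any library. All libraries are from the A2780 line, and the part of the fibroblast markers in the results below was not tested. In bulk RNA fewer cells of a type and less RNA per cell cannot be told apart. Library 4, hypoxia at 6 hr, stood apart in genes picked after their values were seen: haemoglobin HBB was at 20.2 RPKM against 0.0417 to 0.549 in the other 11 libraries, and collagen COL1A2 at 3.06 against 0.0244 to 0.125. The leukocyte genes S100A8 and LYZ were at 1.40 and 0.982 RPKM in library 4, against at most 0.0469 and 0.119 in the other 11. Without it 350 genes in place of 428 were called at 6 hr, 2.83% of all tested genes higher and 0.101% lower, and the same count of members rose (4 of 9: JUN, JUNB, FOSL2 and ATF3) with none lower. SLC2A1, PDK1, BNIP3 and ADM were still called and CA9 was not (adjusted p = 0.368 in limma). Each tested member's 6 hr value is given below with and without it.

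Promoter windows of the members were searched for binding motifs of AP-1 and of the factors that act on it. RefSeq's table for GRCh38.p14 has 250 bases before to 50 after the start site for 9 of the 10 genes, 10 windows in all since ATF3 has 2, and FOSL1 has no entry. Motifs were chosen with these sequences in view and searched on both strands: TGAGTCA (AP-1), TGACGTCA (the cyclic AMP response element), TGACATCA (its variant in the JUN promoter), ACGTG and GCGTG (HIF) and the CArG box of SRF. TGACATCA was in the windows of JUN, ATF3 and KLF6, in capitals at -67 to -60, -123 to -116 and -172 to -165 from the start, and in 2.61% of all 35116 windows. EGR1 had 2 CArG boxes, at -105 to -96 and -83 to -74, which 1.29% of windows hold. FOSL2 had ACGTG at -64 to -60, which with EGR1 and KLF6 makes 3 of 10 member windows against 21.4% of all, and TGAGTCA on the other strand at 5 to 11 bases after its start (4.95% of all windows). JUND had TGACGTCA at -200 to -193 (1.85%), and GCGTG was in 5 of 10 member windows (36.5%). For the 3 windows that share TGACATCA, for FOSL2, which rose most at 6 days, and for EGR1, which fell, the 250 bases before the start are shown 5′ to 3′ on each gene's strand, with these motifs other than GCGTG in capitals. They are chr1:58784048-58784297 (minus strand) for JUN, chr1:212565157-212565406 (plus, the first window) for ATF3, chr10:3785210-3785459 (minus) for KLF6, chr2:28392608-28392857 (plus) for FOSL2 and chr5:138465229-138465478 (plus) for EGR1.
JUN: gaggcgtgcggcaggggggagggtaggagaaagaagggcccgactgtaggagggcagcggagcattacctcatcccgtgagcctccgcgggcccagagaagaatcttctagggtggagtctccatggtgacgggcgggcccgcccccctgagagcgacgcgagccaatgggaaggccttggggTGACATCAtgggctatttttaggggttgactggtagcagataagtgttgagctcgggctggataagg
ATF3: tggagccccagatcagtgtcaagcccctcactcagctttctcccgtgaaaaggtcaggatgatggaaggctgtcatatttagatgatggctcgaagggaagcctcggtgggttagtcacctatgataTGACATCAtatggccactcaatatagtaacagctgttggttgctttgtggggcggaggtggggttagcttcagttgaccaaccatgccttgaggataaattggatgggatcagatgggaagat
KLF6: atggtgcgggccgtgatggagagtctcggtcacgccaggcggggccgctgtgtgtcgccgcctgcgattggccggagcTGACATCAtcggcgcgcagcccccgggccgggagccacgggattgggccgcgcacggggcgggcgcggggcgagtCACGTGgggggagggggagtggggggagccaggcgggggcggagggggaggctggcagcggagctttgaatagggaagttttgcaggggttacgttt
FOSL2: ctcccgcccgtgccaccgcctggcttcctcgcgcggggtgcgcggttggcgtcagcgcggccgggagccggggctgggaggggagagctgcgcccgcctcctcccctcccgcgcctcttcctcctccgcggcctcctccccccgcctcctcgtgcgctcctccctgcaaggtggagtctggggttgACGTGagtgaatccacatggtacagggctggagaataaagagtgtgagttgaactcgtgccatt
EGR1: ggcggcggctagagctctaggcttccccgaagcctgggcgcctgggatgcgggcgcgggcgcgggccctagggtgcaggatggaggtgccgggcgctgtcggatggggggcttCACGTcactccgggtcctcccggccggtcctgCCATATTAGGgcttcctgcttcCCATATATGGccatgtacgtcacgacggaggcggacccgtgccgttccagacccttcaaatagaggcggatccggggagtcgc
In the order printed, JUN, ATF3 and KLF6 share TGACATCA, and the match in JUN follows from the choice of its promoter's variant. Of these JUN and ATF3 rose with hypoxia at all 3 times and KLF6 was not called. FOSL2 also rose at all 3 times, and its window does not hold TGACATCA. A link of the motif to hypoxia was not tested. The second ATF3 window held none of the motifs, and RPKM per gene symbol does not tell the 2 ATF3 start sites apart. A match of letters is a description of the window and not a bound site.

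JUN encodes the founding AP-1 subunit and its most potent activator of transcription. Its level was 4.06 and 2.40 RPKM in normoxia and 8.72 and 7.73 RPKM in hypoxia at 6 hr, 5.78 and 5.25 against 18.0 and 15.3 RPKM at 48 hr, and 8.93 and 10.8 against 18.9 and 17.4 RPKM at 6 days. Both hypoxia libraries lay above both normoxia libraries of their time, and normoxia itself rose with time, so that the 6-day normoxia libraries lay above the 6 hr hypoxia libraries. The fold change was 2.40 at 6 hr (log2 1.26, SE 0.18, adjusted p = 0.00205 in limma), 2.85 at 48 hr (log2 1.51, adjusted p = 0.000243) and 1.81 at 6 days (log2 0.85, adjusted p = 0.00331). At 6 hr its log2 fold change ranked 54 among the 11933 genes, at 48 hr 88 and at 6 days 836. Without library 4 the 6 hr log2 fold change of JUN was 1.34 (adjusted p = 0.012).

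JUNB, which often acts against JUN on growth genes, was at 12.2 and 10.6 RPKM in normoxia and 19.0 and 17.0 RPKM in hypoxia at 6 hr. At 48 hr its libraries read 17.4 and 15.7 RPKM in normoxia against 25.6 and 24.4 RPKM in hypoxia, and at 6 days 18.4 and 19.8 against 20.2 and 17.5 RPKM. The groups were apart at the first 2 times and overlapped at 6 days. JUNB was 1.55-fold higher in hypoxia at 6 hr (adjusted p = 0.00652 in limma) and 1.50-fold at 48 hr (adjusted p = 0.00453), and at 6 days its log2 fold change was -0.02 with a 95% interval of -0.26 to 0.21. The 6 hr call was lost without library 3 (adjusted p = 0.0801) or with the 4 libraries of that time alone (0.0518), and held without library 4 (0.0167). At 48 hr it was lost without library 6 (0.0541) or library 7 (0.0527).

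JUND, the family member that is expressed most steadily in resting cells, was at 12.2 and 11.1 RPKM in normoxia against 15.9 and 13.6 RPKM in hypoxia at 6 hr. The 48 hr libraries read 19.1 and 16.6 against 31.8 and 30.5 RPKM, and the 6-day libraries 23.8 and 23.1 against 26.5 and 23.9 RPKM. The 2 hypoxia libraries of 48 hr were the highest of the 12, and no neighbours in the order of the 6 groups overlapped. JUND rose 1.73-fold at 48 hr (log2 0.79, SE 0.11, adjusted p = 0.000579 in limma), whereas its log2 fold change was 0.32 at 6 hr (95% interval 0.09 to 0.56, adjusted p = 0.146, or 0.43 and 0.105 without library 4) and 0.10 at 6 days (-0.14 to 0.33, adjusted p = 0.492).

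**Figure D1:**
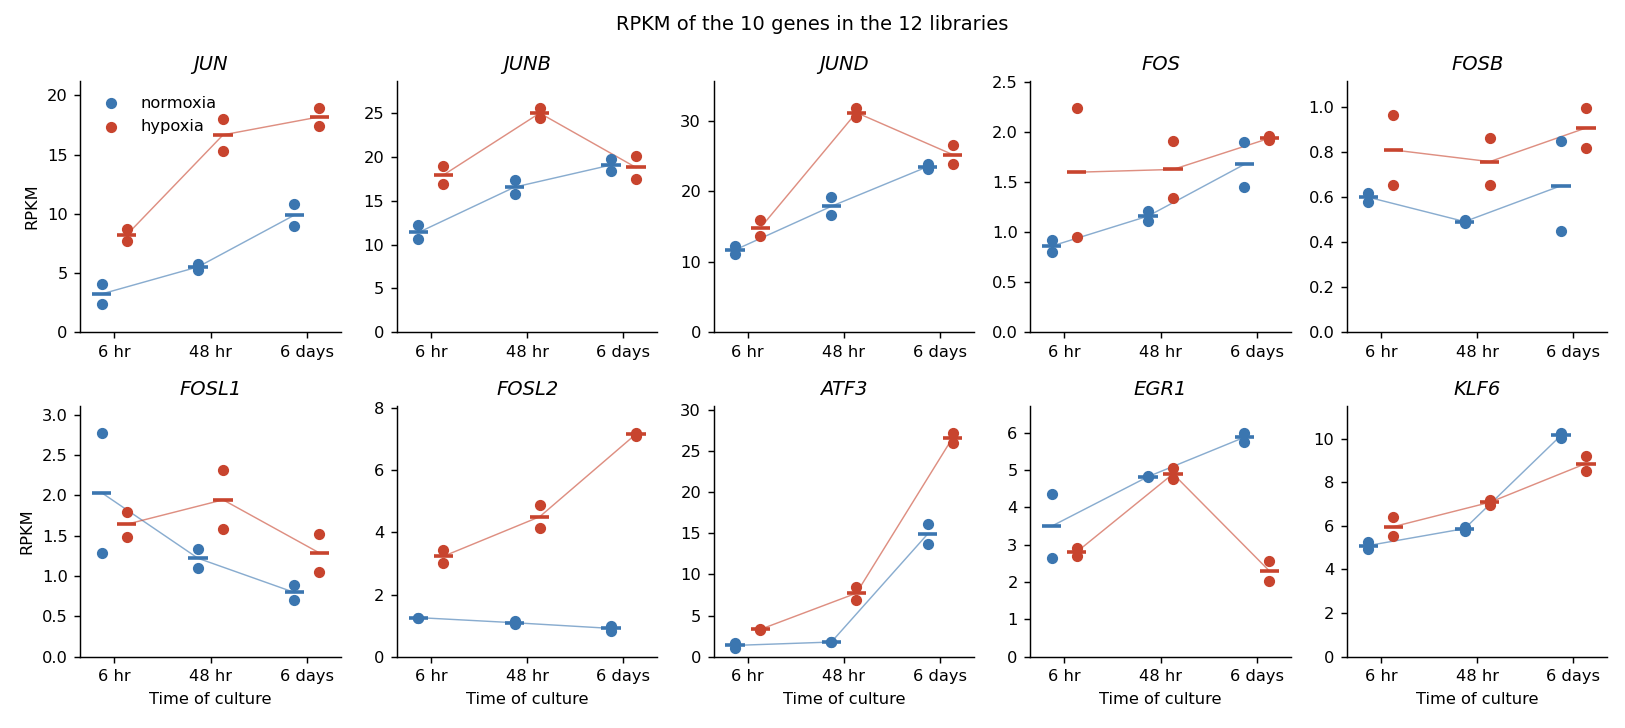
Level of each of the 10 genes (RPKM, linear axis from 0) in the 12 libraries by time of culture, with 1 point per library, blue for normoxia and red for hypoxia, bars at the mean of 2 libraries and thin lines joining the means. JUN, FOSL2 and ATF3 have both hypoxia points above both normoxia points at all 3 times, FOSL2 falls slightly in normoxia while it climbs in hypoxia, and EGR1 is lowest in the 6-day hypoxia libraries.

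Because RPKM is a level per length, the 3 JUN genes can be set side by side. Their sum was 26.3 ± 3.12 RPKM (SD, n = 2) in normoxia and 41.0 ± 3.76 in hypoxia at 6 hr, 40.0 ± 3.37 and 72.9 ± 3.66 at 48 hr, and 52.5 ± 1.79 and 62.2 ± 4.86 at 6 days. JUN itself held 12.1 ± 3.05% of that sum in normoxia and 20.1 ± 0.135% in hypoxia at 6 hr, 13.8 ± 0.227% and 22.8 ± 1.45% at 48 hr, and 18.8 ± 1.93% and 29.3 ± 0.571% at 6 days. JUNB went from 43.4 ± 0.853% in 6 hr normoxia to 30.2 ± 0.697% in 6-day hypoxia, and JUND stayed between 36.0 and 44.8% in the group means. These shares are a description of the same values, with no test.

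FOS, the partner of JUN in the classical AP-1 pair, was among the low genes. It was at 0.921 and 0.798 RPKM in normoxia and 0.955 and 2.24 RPKM in hypoxia at 6 hr, 1.21 and 1.11 against 1.91 and 1.34 RPKM at 48 hr, and 1.90 and 1.45 against 1.92 and 1.95 RPKM at 6 days. Of these, library 4 was the highest of all 12, and library 3 of the same group lay close to normoxia. No hypoxia comparison of FOS passed the threshold: log2 0.56 (95% interval 0.03 to 1.08, adjusted p = 0.271 in limma) at 6 hr, 0.34 (-0.18 to 0.87) at 48 hr and 0.17 (-0.36 to 0.70) at 6 days. Without library 4 the 6 hr value was 0.10 (adjusted p = 0.831), and without library 3 it was 1.01 (adjusted p = 0.0232), so 1 library decided it. FOS values fell on steps of whole reads for a transcript of 2158 bases, within 0.1 of a whole read in 11 of 12 libraries, and gave 79 reads in library 3 and 172 in library 4.

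FOSB, a close relative of FOS, did not reach 1 RPKM in any library and was not tested. Its group means ran from 0.491 RPKM in 48 hr normoxia to 0.907 RPKM in 6-day hypoxia, and single libraries from 0.449 to 0.995 RPKM. With the read totals above, its libraries had 13.4 to 37.0 reads per kilobase. Hypoxia libraries lay above normoxia libraries at 6 hr and 48 hr and overlapped them at 6 days.

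FOSL1, or FRA1, a FOS protein that lacks the strong activation domain of FOS, was at 1.28 and 2.78 RPKM in normoxia against 1.80 and 1.48 RPKM in hypoxia at 6 hr. It was at 1.10 and 1.34 against 1.58 and 2.31 RPKM at 48 hr and at 0.704 and 0.891 against 1.05 and 1.53 RPKM at 6 days. The 6 hr groups overlapped, with library 2 the highest of all 12, and the later groups were apart. Its log2 fold change was -0.18 (95% interval -0.73 to 0.38), 0.49 (-0.06 to 1.05) and 0.45 (-0.10 to 1.01), with adjusted p of 0.782, 0.238 and 0.172 in limma. Without library 4 the 6 hr value of FOSL1 was -0.07 (adjusted p = 0.936), and without library 2 it was 0.26. Steps of whole reads for a transcript of 1668 bases gave it 35 to 136 reads per library.

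FOSL2, or FRA2, the other FRA protein, had the largest fold change of the 9 tested members at 6 days. At 6 hr it was at 1.26 and 1.26 RPKM in normoxia and 3.44 and 3.02 RPKM in hypoxia. The 48 hr libraries read 1.14 and 1.05 against 4.86 and 4.14 RPKM, and those of 6 days 0.832 and 0.993 against 7.11 and 7.21 RPKM. Every hypoxia library exceeded every normoxia library of any time. Group means ran from 7.16 RPKM in 6-day hypoxia down through 48 hr and 6 hr hypoxia to normoxia. Normoxia means were 1.26, 1.09 and 0.912 RPKM at 6 hr, 48 hr and 6 days. No neighbours in this order overlapped, which also held for JUND and ATF3. The share of all genes without such overlap was not counted. The rise was 2.12-fold at 6 hr (log2 1.08, SE 0.11, adjusted p = 0.00014 in limma), 3.13-fold at 48 hr (adjusted p = 1.95e-06) and 5.43-fold at 6 days (log2 2.44, adjusted p = 6.2e-08). Its log2 fold change ranked 82, 73 and 43 among the 11933 genes at the 3 times, and at 6 hr it was 1.16 without library 4 (adjusted p = 0.00114).

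FOSL2 held a larger part of FOS-family RNA in hypoxia than in normoxia at each time. It made up 27.1 ± 5.74% (SD, n = 2) of the summed RPKM of FOS, FOSB, FOSL1 and FOSL2 in normoxia and 44.5 ± 5.10% in hypoxia at 6 hr. The shares were 27.6 ± 1.87% and 50.9 ± 2.59% at 48 hr, and 22.6 ± 1.61% and 63.5 ± 2.53% at 6 days. FOS had the largest mean share in 6-day normoxia, 41.8 ± 10.0%, against 17.2 ± 0.619% in 6-day hypoxia. The FOS-family sum, 3.96 to 11.3 RPKM over the group means, was below the JUN-family sum in every group.

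**Figure D2:**
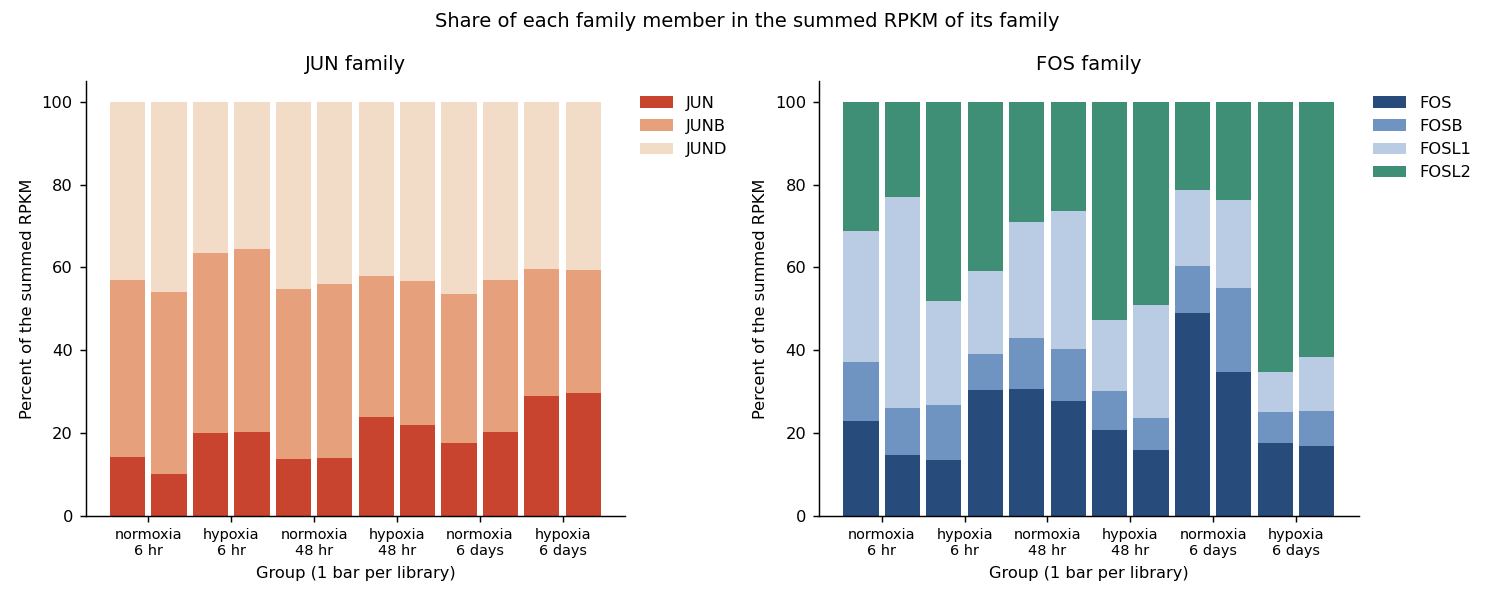
Share of each gene in the summed RPKM of its family (percent, stacked to 100), with JUN, JUNB and JUND on the left and FOS, FOSB, FOSL1 and FOSL2 on the right, and 1 bar per library grouped by oxygen and time. The JUN share goes from 12.1% (mean of 2) in 6 hr normoxia to 29.3% in 6-day hypoxia, and the FOSL2 share is larger in the hypoxia bars of each time, at 63.5% in the last group.

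ATF3, a stress-induced bZIP protein that pairs with JUN proteins and as a pair of its own represses transcription, was at 1.68 and 1.08 RPKM in normoxia and 3.43 and 3.21 RPKM in hypoxia at 6 hr. At 48 hr it read 1.80 and 1.78 against 8.53 and 6.92 RPKM, and at 6 days 13.7 and 16.1 against 27.2 and 26.0 RPKM. Both the time of culture and low oxygen went with more ATF3, and no neighbours among the 6 groups overlapped: 6-day normoxia was second highest, above 48 hr hypoxia. FOSL2 had no such overlap either, nor did JUND, which was not called at 6 hr or 6 days. It rose 2.06-fold in hypoxia at 6 hr (log2 1.04, SE 0.15, adjusted p = 0.00196 in limma), 3.57-fold at 48 hr (log2 1.84, adjusted p = 1.18e-05) and 1.76-fold at 6 days (log2 0.82, adjusted p = 0.00125). Without library 4 the 6 hr log2 value was 1.08 (adjusted p = 0.0135).

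EGR1, a zinc finger factor and a textbook target of SRF, took another course. Its level was 2.64 and 4.35 RPKM in normoxia and 2.70 and 2.91 RPKM in hypoxia at 6 hr, 4.84 and 4.81 against 4.75 and 5.05 RPKM at 48 hr, and 5.75 and 6.00 against 2.04 and 2.56 RPKM at 6 days. Groups overlapped at 6 hr and 48 hr, and at 6 days both hypoxia libraries were below every other library of the series. EGR1 fell by 1.19 on the log2 scale at 6 days, 2.29-fold (SE 0.17, adjusted p = 0.000254 in limma), and ranked 11884 of 11933 by log2 fold change. At 48 hr its log2 fold change was 0.02 (95% interval -0.35 to 0.39), with a sign that turned to -0.05 with quantile normalization and -0.03 with trimmed-mean centring. The 6 hr value was -0.24 (-0.61 to 0.13), -0.29 without library 4 (adjusted p = 0.546), 0.07 without library 2 and -0.55 without library 1, where it passed the threshold (adjusted p = 0.0251).

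KLF6, a zinc finger factor of the Krüppel-like family, moved little with oxygen. It was at 5.28 and 4.92 RPKM in normoxia against 5.52 and 6.40 RPKM in hypoxia at 6 hr, 5.78 and 5.96 against 7.19 and 6.96 RPKM at 48 hr, and 10.3 and 10.0 against 9.19 and 8.52 RPKM at 6 days. Hypoxia libraries were the higher at 6 hr and 48 hr and the lower at 6 days, with no overlap at any time. None of these differences passed the threshold in limma, with log2 0.20 (adjusted p = 0.283), 0.25 (0.102) and -0.19 (0.12), though with quantile normalization the 6-day value was -0.24 (adjusted p = 0.0418). Without library 4 the 6 hr value was 0.11 (adjusted p = 0.655). Absence of overlap was common: it held for 7 of the 9 tested members at 6 hr, 8 at 48 hr and 8 at 6 days, beside 37%, 62.9% and 75.3% of all tested genes.

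**Figure D3:**
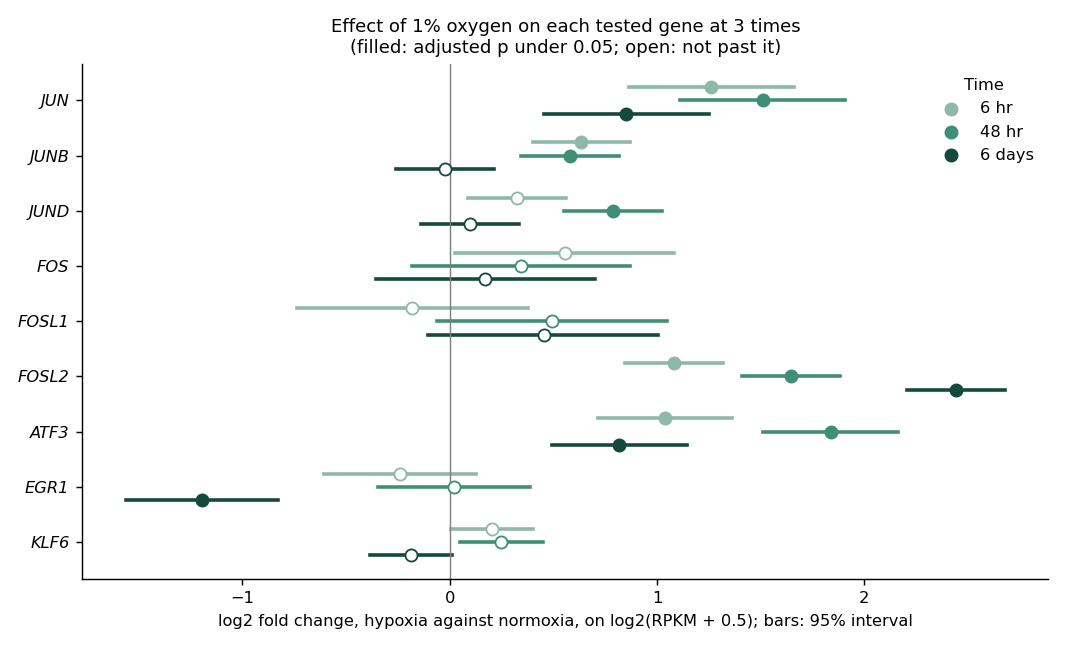
Log2 fold change of hypoxia against normoxia on log2(RPKM + 0.5) for the 9 tested genes (rows) at 6 hr, 48 hr and 6 days (light to dark), with bars for the 95% interval, filled points past an adjusted p of 0.05 and open points not past it. FOSL2 moves right with time, from 1.08 to 2.44, JUN, JUNB, JUND and ATF3 are further left at 6 days than at 48 hr, and EGR1 is called at 6 days at -1.19.

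Whether the effect of hypoxia differed between times was tested in the same model. Between 6 hr and 48 hr 0 of the 9 members passed in limma, beside 0.528% of all tested genes. Lowest in adjusted p were JUND (effect larger at 48 hr by log2 0.47, adjusted p = 0.275 in limma), FOSL2 (0.56, 0.181) and ATF3 (0.80, 0.168). Without library 2 the ATF3 difference was 1.03 and passed (adjusted p = 0.0336). Between 48 hr and 6 days the signed log2 effect rose for 1 member and fell for 4, beside 5.38% and 5.31% of all tested genes, 10.7% in all. FOSL2 gained log2 0.80 (95% interval 0.46 to 1.13, adjusted p = 0.0108 in limma). ATF3 had the effect of hypoxia fall by 1.02 (adjusted p = 0.0137 in limma), JUND by 0.69 (0.0182) and JUNB by 0.61 (0.0303). The signed effect on EGR1 fell by 1.21 (0.0114), from a log2 value of 0.02 at 48 hr to -1.19 at 6 days. In size the effect on EGR1 was thus larger at 6 days.

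These calls between 48 hr and 6 days rested on few libraries. FOSL2 was past the threshold with any of 7 libraries left out and at an adjusted p of 0.0555 without library 8, and EGR1 at 0.0516 without library 8. ATF3 was not past it without library 7 (0.0577), 10 (0.0602) or 12 (0.0518). JUND was not past it without library 6 (0.0698), 7 (0.0653), 8 (0.0616), 9 (0.0618), 10 (0.0567) or 12 (0.0728), and JUNB without library 5 (0.0523), 6 (0.101), 7 (0.0957), 8 (0.086), 9 (0.063), 10 (0.106) or 12 (0.107). JUN (log2 -0.66, adjusted p = 0.121) and KLF6 (log2 -0.44, adjusted p = 0.052) did not pass, and did with the 8 libraries of these times alone (0.0227 and 0.0194). KLF6 also passed with quantile normalization (0.0327), trimmed-mean centring (0.0443) or a pseudocount of 1 RPKM (0.0489).

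The members also moved with time of culture in normoxia. From 6 hr to 48 hr 0 of the 9 members passed in limma, beside 0.0922% of all tested genes. Library 1 mattered here: without it 1310 genes passed in place of 11, among them JUN (log2 1.05, adjusted p = 0.016), JUNB (0.62, 0.0257), JUND (0.66, 0.0257), ATF3 (0.53, 0.0359) and FOSL1 (-0.93, 0.0331). From 6 hr to 6 days all 9 passed, 7 higher and 2 lower, beside 30.9% and 25.9% of all tested genes, 56.7% in all. ATF3 rose 8.27-fold (log2 3.05, adjusted p = 1.1e-07 in limma), JUN 2.85-fold (4.28e-05), JUND 1.97-fold (2.19e-05), KLF6 1.90-fold (1.02e-05), JUNB 1.65-fold (0.000178), EGR1 1.63-fold (0.00382) and FOS 1.59-fold (0.0325). FOSL1 fell 1.87-fold (adjusted p = 0.01) and FOSL2 1.25-fold (0.0245).

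The 3 weakest of these calls, FOS, FOSL1 and FOSL2, depended on single libraries. FOS had an adjusted p of 0.0644 without library 1, 0.118 without library 2 and 0.175 without library 9, with log2 0.39 (0.209) under quantile normalization and 0.0897 with no filter on low values. FOSL1 was at 0.095 without library 2, where its log2 value was -0.46 in place of -0.90, and at 0.0633 without library 9. FOSL2 was at 0.0594, 0.0566 and 0.164 without libraries 1, 2 and 9, and at 0.0977 with the 4 libraries of both groups alone. The 6-day normoxia libraries also serve as the controls of the 6-day hypoxia comparison, so the 2 sets of fold changes at 6 days share them.

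Other genes of the pathway were taken from lists of general knowledge, chosen with earlier results of these data known. Their counts are therefore a description and no separate evidence. Each count below is to be read beside the share of all tested genes. Of these 3.39%, 9.24% and 23.9% rose at 6 hr, 48 hr and 6 days, and 0.201%, 2.89% and 18.3% fell. Without library 4 each of these 5 lists had the same count at 6 hr, 1 higher and none lower, and the gene called was again MAFF, NR4A1, MAPK7, DUSP5 and VEGFA, in the order of the lists. Of 11 other AP-1 and MAF proteins, 7 were tested, and 1, 2 and 3 rose at 6 hr, 48 hr and 6 days with none lower (median log2 0.08, 0.21 and 0.28), and the 6-day count is close to the 42.2% of all genes called in either direction. MAFF, a small MAF protein that pairs with bZIP partners, rose 1.71-fold at 6 hr (2.56 ± 0.570 against 1.28 ± 0.232 RPKM, adjusted p = 0.0198 in limma), 1.92-fold at 48 hr (0.00259) and 1.79-fold at 6 days (0.00168). JDP2, an AP-1 repressor, rose 1.40-fold at 48 hr at a low level (0.52 against 0.23 RPKM). It reached 1 RPKM only in the 6-day libraries, where its log2 fold change was 0.02 (adjusted p = 0.913 in limma). MAFG and MAFK rose 1.22-fold and 1.21-fold at 6 days. Of 23 other immediate-early genes, 18 were tested: 1 rose at 6 hr, 7 at 48 hr and 11 at 6 days, when 1 fell (median log2 0.04, 0.29 and 0.44). KLF4, a Krüppel-like factor, rose 3.24-fold at 6 days (1.86 ± 0.298 against 0.227 ± 0.0136 RPKM, adjusted p = 2.14e-05 in limma) and KLF10 rose 2.13-fold (13.8 ± 1.48 against 6.20 ± 0.481 RPKM, 8.26e-05). CSRNP1 and the orphan receptor NR4A3 rose at 48 hr (1.44-fold and 1.51-fold) and 6 days (1.88-fold and 1.86-fold). KLF4 and NR4A3 reached 1 RPKM only in the 6-day hypoxia libraries. Both were therefore tested only through the group where they are high, and their calls are part of the counts above.

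Kinases and factors upstream went both ways. All 21 MAP kinases, SRF and its partners were tested, and 1 rose at 6 hr, 2 rose and 1 fell at 48 hr, and 5 rose and 3 fell at 6 days (median log2 -0.01, 0.01 and -0.02), which at 6 days is near the share of all genes called. MAPK7, or ERK5, rose 2.15-fold, 2.18-fold and 2.40-fold at the 3 times (3.29 ± 0.805 against 1.25 ± 0.217 RPKM at 6 hr, adjusted p = 0.00122 in limma). MAP2K1, or MEK1, rose 1.53-fold at 48 hr and 1.89-fold at 6 days, MAP2K3 was 1.38-fold and 1.58-fold lower at those times, and MKL2, a cofactor of SRF, was 1.50-fold lower at 6 days. Of 18 feedback genes, which switch these signals off, 16 were tested: 1 rose at 6 hr, 3 at 48 hr and 3 at 6 days, when 6 fell (median log2 0.12, 0.08 and -0.17). At 6 days 3 of 16 higher stands beside 23.9% of all genes and 6 of 16 lower beside 18.3%. DUSP1 is in this list and also among the other immediate-early genes, so its calls count in both. The MAP kinase phosphatase DUSP5 rose 1.69-fold, 1.68-fold and 3.07-fold (5.96 ± 0.111 against 1.60 ± 0.0672 RPKM at 6 days, adjusted p = 1.36e-06 in limma). DUSP1 rose 1.70-fold at 48 hr and 1.78-fold at 6 days and DUSP8 rose 1.60-fold at 48 hr, while DUSP6, a phosphatase of ERK, was 1.59-fold lower at 6 days (10.5 ± 1.44 against 17.0 ± 1.22 RPKM, adjusted p = 0.00299).

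Of 21 textbook AP-1 targets, 12 were tested, and 1 rose at 6 hr, 10 at 48 hr and 10 at 6 days with none lower (median log2 0.15, 0.84 and 0.77, against 0.04, 0.01 and 0.04 over all genes). Higher calls over all genes also grew with time, as 3.39%, 9.24% and 23.9%. The 10 at 6 days include a gene that reached 1 RPKM only in the 6-day hypoxia libraries, the group where it is high. HMOX1, haem oxygenase, rose 3.21-fold at 48 hr (19.5 ± 2.10 against 5.71 ± 0.180 RPKM, adjusted p = 1.18e-05 in limma) and 6.14-fold at 6 days (25.2 ± 2.68 against 3.69 ± 0.602 RPKM, 1.77e-07). The matrix metalloproteinase MMP3 rose 2.39-fold at 48 hr (277 ± 28.4 against 116 ± 11.1 RPKM) and 1.77-fold at 6 days. VEGFA, the vascular growth factor and also a HIF target, rose 1.77-fold, 1.84-fold and 2.24-fold at the 3 times. Other genes of the list may also follow HIF, and the part of HIF in their rise was not tested. Beside these, the summed fibroblast markers were at 38.3 to 41.3 RPKM in hypoxia against 25.1 to 27.7 in normoxia at 48 hr, and their part in the targets' rise was not tested.

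**Figure D4:**
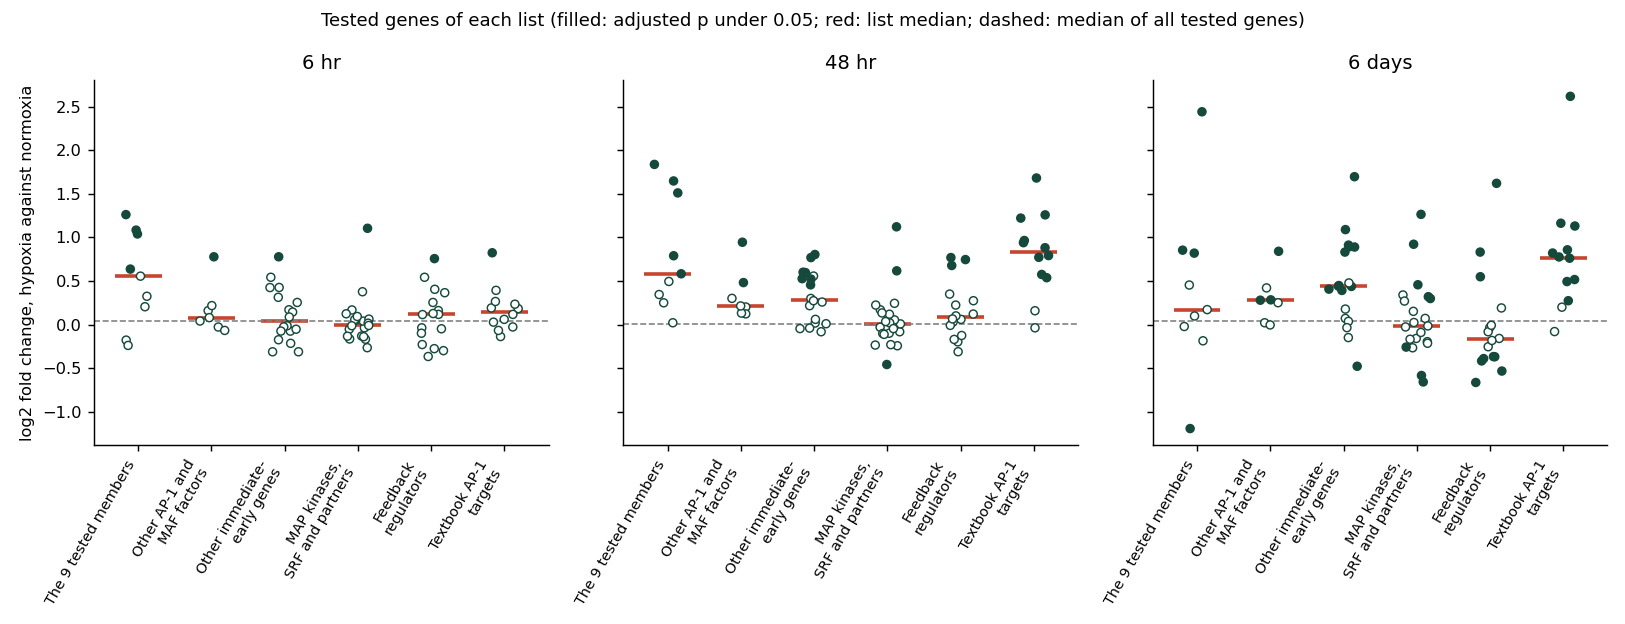
Log2 fold change of hypoxia against normoxia (vertical axis) for the tested genes of each list at 6 hr, 48 hr and 6 days, with 1 point per gene, filled where the adjusted p is under 0.05, red bars at the list median and a dashed line at the median of all 11933 tested genes. The median of the AP-1 targets goes from 0.15 at 6 hr to 0.84 and 0.77, and the MAP kinase list stays near 0 at each time.

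Genes whose pattern was most like each member were named by Pearson's r of log2(RPKM + 0.5) over the 12 libraries, among 10575 tested genes whose mean reached 2 RPKM in some group. The 12 libraries differ in time, oxygen and depth, and all genes share these differences, so r is a description. JUN was most like MPI and NR4A1 (0.984 each), FOSL2 like C4orf3 and WDR45L (0.986 each), and ATF3 like NFATC4, SCD and PTPRH (0.992 each). NR4A1, itself an immediate-early nuclear receptor, was at 1.38, 2.72, 2.34, 4.46, 3.22 and 4.53 RPKM in normoxia and hypoxia at 6 hr, 48 hr and 6 days in turn, which is the order of the JUN means. EGR1 was most like the immediate-early gene IER2 (0.889), which fell 1.39-fold at 6 days (4.69 ± 0.272 against 6.73 ± 0.194 RPKM, adjusted p = 0.00754 in limma). NR4A1 and IER2 were picked for likeness over these same 12 libraries. The order of NR4A1 and the fall of IER2 thus follow in part from the choice and are no separate evidence. KLF6 was most like TSTD2 (0.983), JUND like SEMA6B (0.963) and JUNB like MIF (0.941), whereas FOSL1 (FAM156A, 0.902) and FOS (KCTD9, 0.873) had no gene as close. Among the members, ATF3 and KLF6 went together most (0.918), then JUNB and JUND (0.893) and JUN and JUND (0.887), and FOSL1 and KLF6 (-0.648) and FOSL2 and EGR1 (-0.615) ran opposite.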

How the data were processed

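RNA of 12 A2780 libraries was depleted of ribosomal RNA and sequenced as forward reads on a SOLiD 5500xl, per the labels' protocols. The authors deposited RPKM per gene symbol and per precursor miRNA. The submitters' processing notes list Partek 6.6 and hg19 without a role, and the sources used here do not give the aligner, gene models or counting, nor whether strand was used, so reads of overlapping genes cannot be told apart. RPKM was used as deposited, for 22446 symbols. Read totals were inferred from the steps of low precursor values, of which 94.8 to 98.7% per library then lay within 0.05 of whole reads. No deposited column was left unmapped (0 columns).

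Tests used limma 3.58.1 (R 4.3.3) with 6 group means, an intensity trend, two-sided p and a pseudocount of 0.5 RPKM, on the 11933 genes that reached 1 RPKM in 2 or more of 12 libraries, with adjustment within each of 7 comparisons. Residual degrees of freedom were 6, with 5.08 from the prior. The procedure was tested on simulated data with 200 genes changed at each time. At 6 hr, 48 hr and 6 days it recovered 35.8%, 44.8% and 40.3% of changes of log2 0.5. Of changes of log2 1 it recovered 92.5%, 79.1% and 86.6%. False calls made up 5.03%, 6.37% and 3.21% of the calls, and small changes were thus often missed. The alternatives were other pseudocounts, filters and scalings, the compared libraries alone, and each library left out. With 1 library left out, the lone library of a group is assumed to vary like the other groups. Motifs and figures used Python 3.11.15 and matplotlib 3.10.9.

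Members, lists and motifs were chosen with earlier results of these data known. All 10 members are named. Of each other list up to 4 genes are named, those past the threshold at any time with the largest absolute log2 fold change of hypoxia, with the 5 hypoxia genes and, for each tested member, up to 3 genes most like it. IER2 is named through that last rule. A gene that the rule would name is not reported here.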

Additional observations from a re-analysis of the deposited data

Results flagged for a closer look

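The effect of hypoxia differed between 48 hr and 6 days for 5 of the 9 tested genes, by the contrast of both effects in limma. Over all tested genes 10.7% were called in this contrast. As described above, these 5 calls rested on few libraries. The effect at 6 days minus the effect at 48 hr was -0.605 on the log2 scale for JUNB, -0.692 for JUND, 0.795 for FOSL2, -1.019 for ATF3 and -1.214 for EGR1.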

How the results depend on the processing

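Over 55 results on the members, 590 values from all settings included 536 on the same side of the threshold with the same direction, 33 no longer past it, 14 newly past it and 7 with a reversed sign. The calls of JUN, FOSL2 and ATF3 with hypoxia at the 3 times and of EGR1 at 6 days were kept under every alternative run. Reversed were EGR1 at 48 hr with quantile normalization (-0.051) and trimmed-mean centring (-0.028), and, with 1 library left out, EGR1 at 48 hr (-0.02 to 0.06), EGR1 at 6 hr (-0.554 to 0.074), FOSL1 at 6 hr (-0.618 to 0.259) and JUNB at 6 days (-0.124 to 0.077), none of them called as reported. With 1 library left out the genes called ran from 181 (without library 3) to 836 (without library 1) at 6 hr, 619 to 811 at 48 hr, 3423 to 3612 at 6 days, 11 to 110 for the effect at 48 hr against 6 hr, 365 to 630 for 6 days against 48 hr, 6 (without library 2) to 1310 (without library 1) for normoxia at 48 hr against 6 hr and 5480 to 6585 for normoxia at 6 days against 6 hr, with fewer samples in each fit. With the compared libraries alone 278 genes were called at 6 hr in place of 428, 36 for the effect at 48 hr against 6 hr in place of 63, and 2384 for 6 days against 48 hr in place of 1276. The 63 became 31 with no filter and 97 with trimmed-mean centring, the 1276 became 2479 with quantile normalization, and the 11 of normoxia at 48 hr became 18 with trimmed-mean centring. The cause was not tested. No paired analysis was possible because library numbers are not shared between groups. FOSB had 13.4 to 37.0 reads per kilobase, FOSL1 35 to 136 reads and FOS 45 to 172 reads per library, and the part of depth in their values was not tested.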
